A study of Sus scrofa domesticus with 4 samples.

Results

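The lymphocyte-attracting chemokines, a chemokine receptor and an interferon-induced ubiquitin-like gene were followed in porcine endometrium cultured with OXA (orexin A), a peptide of the hypothalamus that promotes wakefulness and appetite. The genes were the chemokines CXCL9, CXCL10, CCL5 and CCL19, the chemokine receptor CXCR4, and UBD, also called FAT10. They were taken as all non-control probes whose RefSeq accession maps to these pig symbols, which gave 8 probes for 6 genes out of 2407 named genes and 26927 probes measured. CXCL10 and CCL5 had 2 probes each, and the others had 1. All 8 probes were well above background in all 8 readings, so no member was lost to the filter on dim probes. The genes were chosen on their OXA over control ratios together with their ratios of the 2 dyes. Those ratios are therefore described here without tests.

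Endometrial slices came from 4 gilts (Large White x Polish Landrace, 7 to 8 months old) on days 15 to 16 of gestation. After 2 h of culture they were kept for 24 h with OXA or with no treatment; the dose was 10 nM in the sample labels and 10 µM in the design text of the series. Each of 4 Agilent arrays carried 1 OXA RNA and 1 control RNA in the dyes Cy5 and Cy3. By the labels of the single samples, Cy5 carried OXA on arrays 1 and 3 while Cy3 carried it on arrays 2 and 4. The general labelling text given with every sample places OXA in Cy5. Cultures were run in duplicate in 4 experiments, but the labels do not tie an array to 1 gilt, so the spread between arrays may hold animal, tissue and handling differences.

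Chemokines are small secreted proteins that attract leukocytes through G protein-coupled receptors. CXCL9 and CXCL10 are induced by interferons and attract activated T and NK cells through the receptor CXCR3. CCL5 attracts T cells and monocytes, and CCL19 draws naive T cells and dendritic cells through CCR7. CXCR4 is the receptor of CXCL12. UBD encodes a ubiquitin-like protein that marks proteins for the proteasome and is induced by interferon gamma and tumour necrosis factor. In the pregnant pig uterus the conceptuses release interferons around the time of attachment.

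No spot of any array was saturated. Between 62.3% and 74.5% of probes were well above background in Cy5, and 31.7% to 56.7% in Cy3, with the lowest share on array 1. Array 1 was on a slide of its own and its scan came 71 days later. Of the markers kept, 7 of 7 for epithelium and 3 of 3 for stromal fibroblasts were well above background in all 8 readings (4 arrays with 2 dyes each). That held for 13594 of the 26927 probes kept. The fibroblast marker THY1 was on the array but was not kept. No probe passed an adjusted p of 0.05 in limma for OXA over control (0% of 26927 probes; lowest adjusted p = 0.763; 500 probes at an unadjusted p under 0.05). In bulk tissue, fewer cells of a type and less RNA per cell cannot be told apart.

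The 4 chemokines and UBD had no common direction with OXA under the dyes of the sample labels. Under those labels their ratios followed the dye, and Cy5 was brighter than Cy3 in 25 of 28 readings of their 7 probes. CXCL10 and CCL5 enter that count with 2 probes each. The genes were chosen partly on this ratio, so the count is only a description. Over all named genes the median Cy5 over Cy3 was 0.03. CXCR4 was the exception, below control on 4 of 4 arrays. Values below are log2 ratios after background correction and loess normalization within each array, with n = 4 arrays.

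CXCL9 was the clearest case. Its log2 OXA over control was 1.47 on array 1, -1.56 on array 2, 1.67 on array 3 and -1.16 on array 4. It was thus above control on both arrays with OXA in Cy5 and below control on both with OXA in Cy3. The mean was 0.10 ± 1.70 (SD), while Cy5 over Cy3 averaged 1.46 ± 0.22 (SD), a fold of 2.76. This mean dye ratio was the highest among the 2407 named genes. Of 1210 other probes within 0.5 log2 units of its brightness, 0 had a higher mean, and their median was 0.08. CXCL9 was chosen partly on this ratio, so these ranks are only descriptions. In the unnormalized scans its Cy5 signals were 16120, 32670, 29450 and 48720 on arrays 1 to 4, against Cy3 signals of 2802, 3502, 2188 and 7808. Those signals gave log2 ratios of 2.52 to 3.75, against array medians of -0.50 to 0.25 over all probes. These medians take in probes of every brightness, so they are not a like comparison for a bright probe. On the same raw scale CXCR4 ran from 0.06 to 1.80. After loess, which fits the ratio against brightness, CXCL9 had Cy5 over Cy3 of 1.16 to 1.67.

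CXCL10 showed the same split less completely. Its brighter probe had log2 OXA over control values of 1.53, 0.09, 0.92 and -0.93 on arrays 1 to 4, and its other probe 1.22, -0.02, 0.68 and -0.46. Both probes were above control on arrays 1 and 3, near 0 on array 2 and below control on array 4. Their OXA coefficients were 0.40 (SE 0.22) and 0.35 (SE 0.14), and their Cy5 over Cy3 means were 0.83 ± 0.67 and 0.59 ± 0.50 (SD). The spread between arrays of the OXA ratio was larger than its mean for both probes, 1.07 and 0.74 (SD). The coefficient of the brighter probe was 0.15 without array 2 and 0.66 without array 4, and without array 1, which leaves a single slide, it was 0.25.

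CCL5 departed from the split on array 1. Its brighter probe was -0.05, -1.02, 0.89 and -2.00 for OXA over control on arrays 1 to 4, and its other probe -0.07, -0.96, 0.97 and -0.73. Only array 3 was above control, and the probes differed by over 1 log2 unit on array 4. The OXA coefficients were -0.55 (SE 0.25) and -0.20 (SE 0.20), with SDs over the arrays of 1.24 and 0.86. Cy5 over Cy3 averaged 0.96 ± 0.84 and 0.65 ± 0.49 (SD). The coefficient of the brighter probe was -0.31 without array 1, -0.79 without array 2, -0.78 without array 3 and -0.30 without array 4. For the other probe it was 0.06 without array 1, so its direction turned.

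CCL19 and UBD were close to 0 for OXA and steady for the dye. CCL19 was 0.57, -1.19, 0.82 and -0.73 on arrays 1 to 4, with a mean OXA over control of -0.13 ± 0.98 (SD) and a mean Cy5 over Cy3 of 0.83 ± 0.26 (SD). UBD was 0.60, -0.81, 1.01 and -0.82, with a mean OXA over control of 0.00 ± 0.95 and a mean Cy5 over Cy3 of 0.81 ± 0.17 (SD). With median centring in place of loess, which moved the median of all probes for OXA to 0.14, CCL19 was 0.22 and UBD 0.28 for OXA. Both were above control where OXA was in Cy5 and below it where OXA was in Cy3. Among probes within 0.5 log2 units of their brightness, 8 of 2890 had a higher mean Cy5 over Cy3 than CCL19, and 8 of 1145 than UBD. Both genes were chosen partly on this ratio, so these counts are only descriptions.

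**Figure D1:**
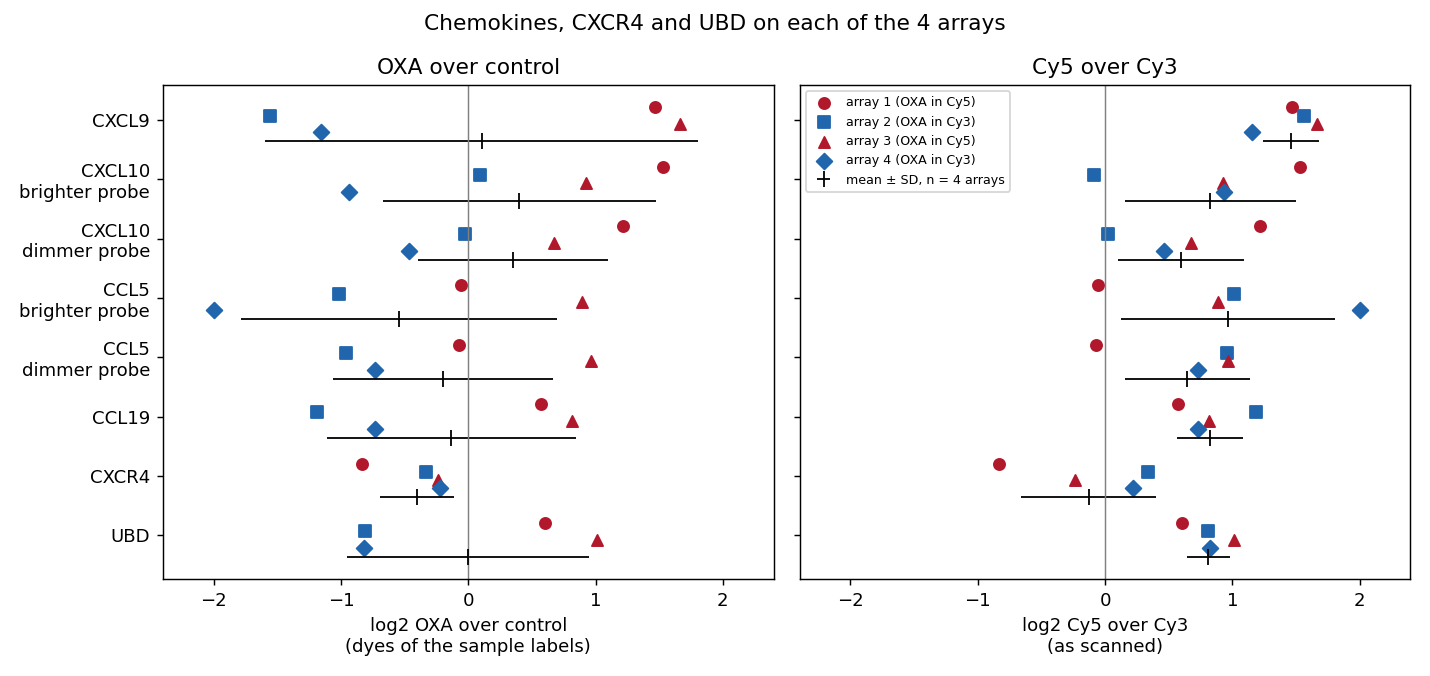
Each row is 1 probe of the 6 genes, with a point per array (colour gives the dye that carried OXA) and a bar for the mean ± SD of 4 arrays; the left axis is log2 OXA over control and the right axis log2 Cy5 over Cy3. For CXCL9, CCL19 and UBD the points part by colour on the left and gather at 0.57 to 1.67 on the right, whereas CXCR4 lies below 0 on all arrays on the left.

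CXCR4 had log2 OXA over control values of -0.84, -0.33, -0.23 and -0.22 on arrays 1 to 4. It was lower than control on every array, with a mean of -0.41 ± 0.29 (SD), a fold of 0.75, and it was lowest on array 1. On that array the 7 epithelium markers had a median of -1.04 and the 3 stromal fibroblast markers one of 1.44; their part in the CXCR4 value was not tested. Without array 1, CXCR4 stood at -0.26. Its size also moved with the background correction, to -0.69 with none and -0.79 with Agilent's log ratio. With median centring in place of loess it was 0.04, where the median of all probes was 0.14. Its Cy5 over Cy3 mean was -0.13 ± 0.53 (SD), and Cy5 was brighter on 2 of 4 arrays.

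Of the 6 genes, 1 (CXCR4) was below control on 4 of 4 arrays, against 5.86% of named genes. Cy5 was above Cy3 on 4 of 4 arrays for 3 of the 6 (CXCL9, CCL19 and UBD), against 13.2% of named genes. For these 3 the excess was over 0.5 log2 units on each array, which held for 0.332% of named genes. That threshold was set after the values were seen. The other 5 genes past it were the unnamed locus LOC396781, the acute phase gene SAA3, the complement component C3, GP91-PHOX (a subunit of the phagocyte oxidase) and SLA-DRB1 (a class II antigen-presenting chain). Their mean Cy5 over Cy3 ran from 0.68 to 1.35. Since the members were chosen on these ratios, nothing is read from the counts. The fit gave 0 probes past an adjusted p of 0.05 for the dye as well (0% of 26927; 1042 at an unadjusted p under 0.05).

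**Figure D2:**
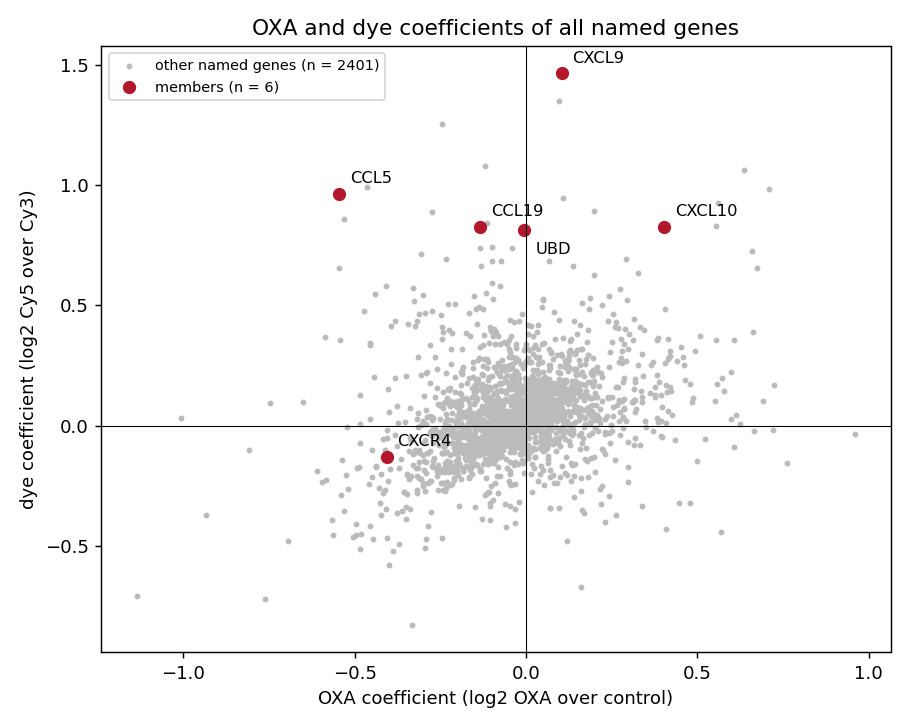
Each point is 1 of 2407 named genes, with the OXA coefficient (log2 OXA over control) across and the dye coefficient (log2 Cy5 over Cy3) up; the 6 members are in red. CXCL9 has the highest dye coefficient (1.46) with an OXA coefficient of 0.10, and CXCR4 lies at -0.13 on the dye axis and -0.41 on the OXA axis.

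Without regard to the pairing on each array, the levels of the 2 RNAs overlapped for all 8 probes. That includes CXCR4, which was below control on 4 of 4 arrays. The share of all probes that overlap is not given here, so nothing is read from this count. On a log2 scale of normalized signal, CXCL9 was 13.58, 12.51, 13.90 and 13.79 in OXA slices on arrays 1 to 4, against 12.11, 14.07, 12.24 and 14.95 in control slices. The control values fell into a low pair on arrays 1 and 3 and a high pair on arrays 2 and 4. UBD averaged 13.49 ± 0.54 in OXA slices and 13.49 ± 1.13 in control slices (SD). The brighter CXCL10 probe averaged 16.86 ± 0.52 in OXA slices and 16.46 ± 0.89 in control slices (SD). The brighter CCL5 probe averaged 14.03 ± 1.17 in OXA slices and 14.57 ± 1.07 in control slices (SD). For CCL19 the means were 11.90 ± 0.56 in OXA slices and 12.04 ± 0.59 in control slices (SD). All these differences were smaller than the SDs over the arrays, which also hold the split by dye. CXCR4 averaged 11.32 ± 0.37 in OXA slices and 11.73 ± 0.36 in control slices (SD). Levels of different probes cannot be set against each other.

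**Figure D3:**
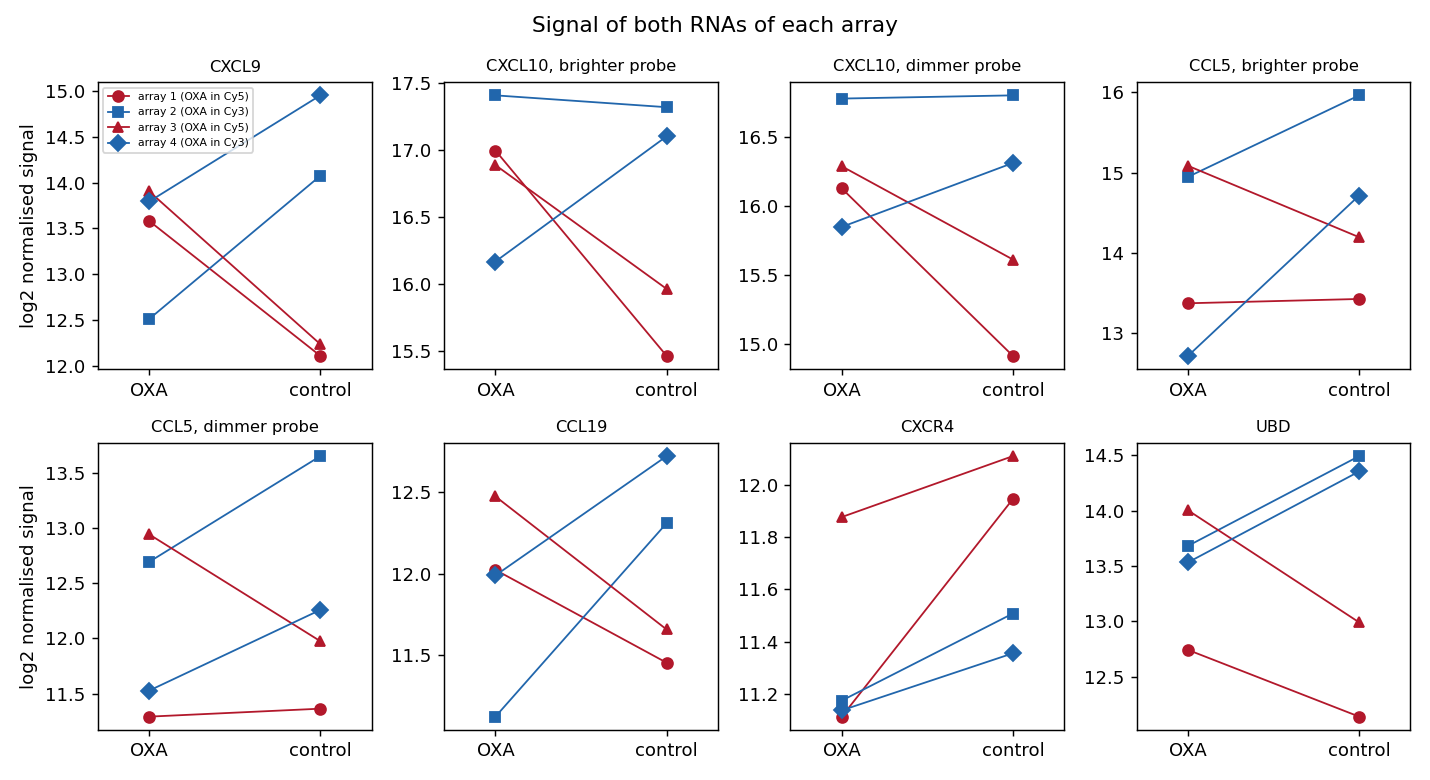
Log2 normalized signal of each probe in the OXA RNA (left) and the control RNA (right), with a line joining the 2 RNAs of 1 array and the colour giving the dye of OXA. In CXCL9, CCL19 and UBD the lines run down where OXA was in Cy5 and up where it was in Cy3, and in CXCR4 all 4 lines run up toward control.

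If OXA is read as Cy5 on all 4 arrays, as the labelling protocol has it, the dye ratios above become the OXA ratios. The OXA value would then be 1.46 for CXCL9 (SE 0.10), 0.83 for CXCL10, 0.96 for CCL5, 0.83 for CCL19, 0.81 for UBD and -0.13 for CXCR4 (brighter probes). Under that reading 5 of 6 genes were above control, against 2 of 6 under the sample labels. The medians of all named genes were 0.03 and -0.02 under these readings. The members were chosen partly on the dye ratio, so these counts are only descriptions. Again 0% of 26927 probes passed an adjusted p of 0.05 with OXA read as Cy5. With that reading, dye and treatment cannot be told apart. Over all 26927 probes, OXA over control by the sample labels correlated at 0.11 between arrays 1 and 3 and 0.07 between arrays 2 and 4, the pairs with OXA in the same dye. The pairs with opposite dyes stood at 0.42 (arrays 1 and 2), -0.14 (arrays 1 and 4), -0.02 (arrays 2 and 3) and -0.29 (arrays 3 and 4).

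Binding partners of these genes were set beside them. CCR7, the receptor of CCL19, was split in the same way, with log2 OXA over control of 0.41, -0.79, 0.36 and -0.58 on arrays 1 to 4, an OXA coefficient of -0.15 (SE 0.07) and a mean Cy5 over Cy3 of 0.54 ± 0.20 (SD). CXCL11 (the remaining ligand of CXCR3) and CXCL12 were looked at for their roles after their values had been seen. CXCL11 had a mean Cy5 over Cy3 of 0.47 ± 0.53 and CXCL12 of 0.18 ± 0.16 (SD). For OXA over control CXCL11 was -0.29 (SE 0.19) and CXCL12, the ligand of CXCR4, was -0.06 (SE 0.08).

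Among 33 other chemokine ligands 21 were measured, and 18 were below 0 for OXA, with a median of -0.13 against -0.02 over all named genes. The share of all named genes below 0 is not given here, so counts of signs in this and the later lists are only descriptions. Below control on 4 of 4 arrays were 3 of the 21 ligands, against 5.86% of named genes. None of the 21 passed an adjusted p of 0.05 in limma (0% of named genes). A looser rule asked for a fold of 1.2 or more at an unadjusted p under 0.05; by it 2 were lower (1.87% of named genes) and 0 higher (0.582% of named genes). The lower ones were the platelet chemokine PPBP, -0.55 (SE 0.11), and CXCL2, which draws neutrophils, -0.35 (SE 0.11). CCL20, which attracts cells bearing CCR6, was -0.54 (SE 0.19). PPBP was 0.06 (array 1), -0.94 (array 2), 0.15 (array 3) and -1.46 (array 4), while CXCL2 was below control on 4 of 4 arrays. Of the ligands 6 of 21 had Cy5 above Cy3 on 4 of 4 arrays, against 13.2% of named genes. The median of the list was -0.06 with median centring, -0.29 with no background correction, -0.32 with Agilent's log ratio or the authors' table and -0.35 for the 11 ligands well above background in all 8 readings.

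Of 12 measured chemokine receptors 6 were below 0 for OXA, with a median of -0.01, or 0.02 with median centring, -0.11 with no background correction, -0.15 with the authors' table and -0.17 for the 4 well above background in all 8 readings. CCR1, a receptor of CCL5 and related chemokines, was -0.34 (SE 0.07). It was the 1 receptor lower by the looser rule (1.87% of named genes), with 0 higher (0.582% of named genes). Its ratios were -0.04, -0.75, 0.20 and -0.79 on arrays 1 to 4. ACKR3, another receptor of CXCL12, was -0.19 (SE 0.08). Cy5 was above Cy3 on 4 of 4 arrays for 5 of 12 receptors, against 13.2% of named genes.

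The interferon gamma and NF-kB pathway had 28 measured genes, 18 of them below 0 for OXA, with a median of -0.04, or 0.08 with median centring, -0.14 with Agilent's log ratio or the authors' table and -0.11 for the 21 well above background in all 8 readings. IFNGR1, a chain of the interferon gamma receptor, was -0.44 (SE 0.11). It was among 5 of the 28 genes below control on 4 of 4 arrays, against 5.86% of named genes. The kinase JAK1 was -0.24 (SE 0.08) and the adhesion molecule ICAM1 -0.29 (SE 0.10). By the looser rule 2 genes of the list (IFNGR1 and ICAM1) were lower (1.87% of named genes) and 0 higher (0.582% of named genes). IFNG itself was well above background in 2 of 4 OXA readings and 2 of 4 control readings. The median Cy5 over Cy3 of the list was 0.09, against 0.03 over all named genes. Of the 28 genes 4 had Cy5 brighter on 4 of 4 arrays, against 13.2% of named genes. Among 14 ubiquitin-like and proteasome genes the median for OXA was -0.05, or 0.26 with median centring. UBB (a polyubiquitin gene) was -0.21 (SE 0.08), PSME2 (a proteasome activator subunit) 0.18 (SE 0.07) and ISG15 (an interferon-induced ubiquitin-like protein) -0.52 (SE 0.24). ISG15 had Cy5 brighter on 1 of 4 arrays, unlike UBD. Of the 14 genes 3 (PSME2 and PSMB9 among them) had Cy5 brighter on 4 of 4 arrays, as UBD had, against 13.2% of named genes. In both lists 0 genes passed an adjusted p of 0.05 in limma.

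Genes whose signal most resembled each member were sought over the 8 channel values among 565 named genes spanning at least 1 log2 unit. These values share arrays and dyes, so the correlations are descriptions. UBD was most like GBP1, an interferon-induced GTPase (r = 0.98). CCL5 was most like IL1B (r = 0.96), STAT2 and PSMB9. CXCL10 was most like ACSL5 (r = 0.92) and BST2. CXCL9 and CCL19 shared SLA-DRB1 and FHL1 among their nearest genes, with DES for CXCL9 (r = 0.89) and TPM2 for CCL19 (r = 0.93), which encode muscle proteins. CXCR4 was most like NANS, IFNGR1 and PDIA4 (r = 0.88 to 0.90). Between members, CXCL9 and CCL19 had the highest correlation (0.91), and CXCR4 ran from -0.57 with CXCL10 to 0.17 with CCL5.

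Markers of the cells that could carry these transcripts were examined beside them. Of 32 T and NK lymphocyte markers 15 were measured, 9 of them below 0 and 6 above 0 for OXA, with a median of -0.01. It was 0.04 with median centring, -0.15 when background was not corrected and -0.23 with Agilent's log ratio or the authors' table. Of the 15, 2 were well above background in all 8 readings, with a median of -0.16. The summed signal of the 15 was 18480 to 30140 in OXA slices and 18170 to 30770 in control slices. The medians of the 15 for OXA over control were 0.12, -0.21, 0.15 and -0.08 on arrays 1 to 4. Cy5 was above Cy3 on 4 of 4 arrays for 9 of 15, against 13.2% of named genes. The markers with the lowest unadjusted p were all below 0, CD8A at -0.13 (SE 0.09), CD247 at -0.22 (SE 0.16) and LCK at -0.10 (SE 0.07). The CD3 subunits CD3D, CD3E and CD3G of the T cell receptor complex were measured, CD3D being well above background in only 4 of 8 readings. CD4, NCR1 and CTLA4 were on the array but were not kept.

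Of 24 macrophage and other myeloid markers 16 were measured, 12 of them below 0 and 4 above 0 for OXA, with a median of -0.08. It was 0.09 with median centring, -0.37 when background was not corrected and -0.46 with Agilent's log ratio or the authors' table. The array medians split more widely by dye, at 0.36, -0.34, 0.09 and -0.41 on arrays 1 to 4. Mean Cy5 over Cy3 was above 0 for 16 of 16, with a median of 0.26 against 0.03 over all named genes. Cy5 was brighter on 4 of 4 arrays for 7 of 16, against 13.2% of named genes. The summed signal was 29730 to 57170 in OXA slices and 23660 to 70470 in control slices. FCGR3A, an antibody receptor, was -0.27 (SE 0.10), S100A8 -0.46 (SE 0.21) and the costimulatory molecule CD86 -0.14 (SE 0.07). On arrays 1 to 4 FCGR3A was 0.49, -0.95, 0.74 and -1.37, and S100A8 was -0.01, -1.26, 1.07 and -1.65. Their mean Cy5 over Cy3 was 0.89 and 0.99. The part of these cells in the members' values was not tested. Endothelium markers had a median of -0.11 (0.09 with median centring) over 8 genes, 7 of them below 0 and 1 above 0. CDH5 was -0.25 (SE 0.11), PECAM1 -0.31 (SE 0.29) and VWF -0.14 (SE 0.16), each above control on array 1. Epithelium markers had a median of -0.19 (0.16 with median centring) over 7 genes. Of the epithelium genes 5 were below 0 (OCLN -0.36, CLDN3 -0.45 and CLDN4 -0.54 among them) and 2 above 0 (CLDN7 0.09, KRT8 0.05). Their median was 0.05 without array 1, 0.00 without array 2, -0.50 without array 3 and -0.39 without array 4. Unlike the myeloid markers, they had a mean Cy5 over Cy3 above 0 for 1 of 7, with a median of -0.29. EPCAM had Cy5 below Cy3 on 4 of 4 arrays. Of the fibroblast markers LUM was 0.39, DCN 0.43 and COL1A2 0.31. All 3 were highest on array 1, and without it the fibroblast median of 0.39 was -0.02. The lone B cell marker measured, CD79A, was -0.12, and 0 of 8 red blood cell markers were on the array under a matched name. None of these marker genes passed an adjusted p of 0.05 in limma (0% of named genes).

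**Figure D4:**
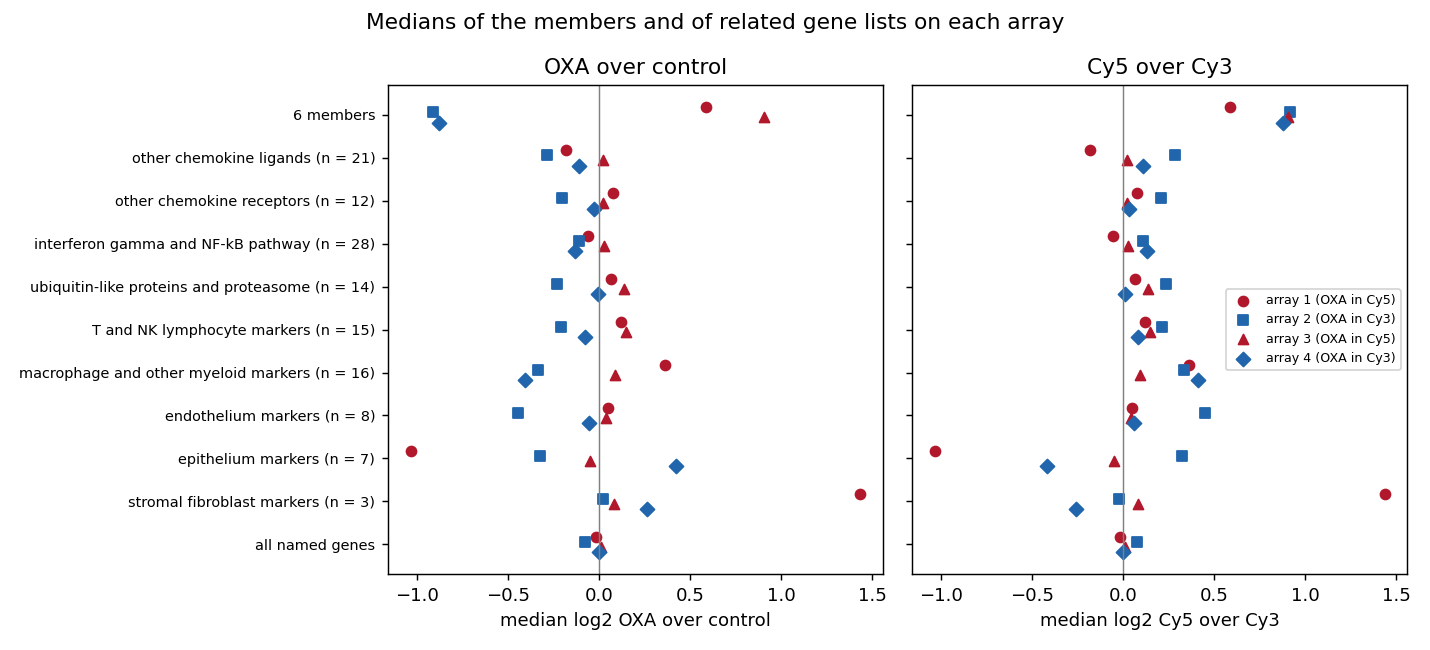
Median log2 OXA over control (left) and log2 Cy5 over Cy3 (right) of the 6 members, of lists with at least 3 measured genes and of all named genes, with a point per array coloured by the dye of OXA. The members have Cy5 over Cy3 medians of 0.59 to 0.91 on all arrays, and the T and NK markers 0.08 to 0.21.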

How the data were processed

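RNA of OXA-treated and control slices was hybridised together on 4 two-colour Agilent arrays. Per the file headers, the deposited scanner files came from Agilent Feature Extraction 10.7.3.1 and hold median pixel intensity of each spot and its local background, processed intensity, and the log10 ratio of the dyes (Cy5 over Cy3). The series' value table, deposited by the authors, holds log2 ratios: its columns had slopes of 1.06, -1.00, 1.04 and -1.03 on the scanner's Cy5 over Cy3 over 43420 probes, which fits OXA over control under the dyes of the sample labels. Its column medians were -0.17, 0.06, -0.06 and 0.09, and its centring stays unknown.

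Median intensities were background-corrected with normexp (offset 50), normalized by loess within arrays, and fitted in limma 3.58.1 (R 4.3.3) with an OXA and a dye coefficient. The fit had 2 residual degrees of freedom (3.88 after moderation). The dye coefficient takes up a split by dye, so a fit's SE does not hold it; the SD over arrays does. P-values were adjusted by Benjamini-Hochberg over 26927 of 43603 probes, those well above background in at least 4 of 8 readings, without control and outlier spots. Channel levels were taken after Aquantile normalization. Of 7125 probes with RefSeq accessions 6700 matched the Sscrofa11.1 gene table, naming 3029 genes, each represented by its brightest kept probe. The file headers name no genome build, so no coordinates are given. The number of arrays limits the precision.

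Members and lists were chosen with earlier results of these data known. Named genes were all members, up to 3 genes per list (lowest unadjusted p), and the 3 most correlated with each member; some genes under these rules are not reported here. Scripts were tested on simulated data. Alternatives covered background, normalization, filter, dye reading, variance model, slide and left-out arrays.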

Additional observations from a re-analysis of the deposited data

Results flagged for a closer look

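Of 62 sets of 4 arrays examined, 5 had 1 array far from the other 3 by Dixon's critical value, which chance passes in about 1 in 20 sets. The sets are not independent, since CD79A is the B lymphocyte list's lone gene. CXCR4 stood at 11.88 in the OXA RNA of array 3, against 11.11 to 11.17 on the rest. On array 1, OXA over control was -1.38 for the tight junction gene OCLN, 1.44 for the median of the stromal fibroblast markers and -0.42 for CD79A, which is also the B lymphocyte median (-0.42).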

How the results depend on the processing

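The median OXA coefficient over the 6 genes was -0.07 and their median Cy5 over Cy3 was 0.83. Leaving out 1 array at a time gave -0.15 to 0.01 and 0.75 to 0.95. With median centring in place of loess these medians were 0.25 and 2.22, where the medians of all probes were 0.14 and 0.32. With that centring, which moved the median of all probes from 0.02 to 0.14, 5 of 6 genes were above control instead of 2. CCL19 at 0.22, UBD at 0.28, CXCR4 at 0.04 and the dimmer CCL5 probe at 0.13 had turned. Taking Cy5 as OXA throughout gave a median of 0.83. Within the slide of arrays 2 to 4, and with slide as a block, which gives the same values as leaving out array 1, UBD was 0.10. The looser count over all probes was 349, of which 48.1% were higher. It was 1406 (58.0% higher) with no background correction, 1829 (68.9%) with Agilent's log ratio, 1824 (68.6%) with the authors' table, 4297 (99.9%) with median centring and 679 (84.5%) with OXA read as Cy5. With arrays left out it ran from 285 to 3115, the highest without array 3, and it was 2059 without array 4. The split was 42.8% higher with no filter. With the intensity trend 3 probes passed an adjusted p of 0.05, and with arrays left out 0 to 6, the 6 without array 4; in the other alternatives 0 passed. Among genes of the lists 0 passed in every alternative run. Mean Cy5 over Cy3 was above 0 for at least 7 of the 8 probes in each alternative. The causes were not tested. Each array's ratio already pairs an OXA RNA with the control RNA on the same array. No paired analysis was possible beyond this because the arrays form 1 group.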
